A study of Homo sapiens with 33 samples.

Results

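The nuclear RNA of K562 cells was compared with the expression of the genes that carry EZH2-bound RNA fragments. EZH2 is the catalytic subunit of Polycomb Repressive Complex 2 (PRC2), and its RNA partners were located by RNA immunoprecipitation followed by sequencing (RIP-seq). Of the 900 listed RIP-seq fragments, 710 lay with at least 50% of their length inside a gene span of the table of input RNA expression, in 288 host genes. For each of these 710 fragments, the nuclear reads per kb of fragment (the nuclear density) were set beside the FPKM of the host gene in the input RNA of the RIP-seq. FPKM counts sequenced fragments per kb of annotated transcript, scaled to the size of the library, so both quantities are levels per length, on different scales. Where a fragment lay in several genes, as 89 did, the gene with the highest FPKM was taken as the host.

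K562 is an established human erythroleukemia cell line, and the cells used here were wild type, without the CRISPR treatments used elsewhere in the series. The nuclear library was made from RNA of isolated nuclei after removal of rRNA, whereas the input library came from the RIP-seq of formaldehyde-fixed cells. The RIP used lysates of nuclei, while the labels call the input total RNA, and which of these the input was made from is not stated further. Both are 1 library, as are the cytoplasmic, nuclear polyA+ and nuclear polyA− libraries used beside them, so no value has a replicate error. Intervals of single densities are 95% exact Poisson intervals and cover counting error only.

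A gene is transcribed into a precursor RNA that contains introns, and splicing removes these while the RNA is still in the nucleus. Reads over introns therefore follow unspliced or excised RNA, while the FPKM of a gene counts its annotated exons and follows mature transcripts as well. PRC2 is known to bind nascent RNA broadly, with a preference for G-rich sequence, and it silences genes through methylation of histone H3. The comparison addresses how far the level of nuclear RNA over EZH2-bound fragments goes with the expression of the host gene. The density counts all nuclear RNA over a fragment, whether or not it is bound to EZH2.

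The input RNA carried the erythroid genes that define K562. Among the 10 markers set for the line, HBG2 (218 FPKM), TFRC (171), HBE1 (132) and HBG1 (109) were highest, and the lowest was HBA1 at 4.73. HBG2, HBG1 and HBE1 encode fetal and embryonic globin chains, and TFRC encodes the transferrin receptor. Of 10 markers of other blood cells, 9 were below 1 FPKM, with CD14, CD79A and ELANE at 0. The exception was CD3D at 6.29 FPKM (3.85 to 8.73), a component of the T cell receptor complex.

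Stretches from fragments of very different nuclear density are shown so that the RNA on which the comparison rests can be read. Each is the central 90 bases of its fragment, or the whole fragment where that is shorter, on the transcribed strand of the host, from hg38. Capitals mark GGG, a run of G of the kind that PRC2 is known to favour. MALAT1, STXBP5, MBNL1, LVCAT5 and EXOC4 come from the densest fragments, LEVER from the second fragment, by coordinate, of the transcript that gave the study its name, and FGF13 and LINC01203 from fragments with 0 nuclear reads.
MALAT1 (chr11:65500233-65500322, plus strand, exon): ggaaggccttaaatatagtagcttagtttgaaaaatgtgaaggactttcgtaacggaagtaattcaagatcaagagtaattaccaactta
STXBP5 (chr6:147249734-147249823, plus strand, intron): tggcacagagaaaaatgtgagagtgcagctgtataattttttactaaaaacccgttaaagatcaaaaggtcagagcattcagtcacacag
MBNL1 (chr3:152305520-152305609, plus strand, intron): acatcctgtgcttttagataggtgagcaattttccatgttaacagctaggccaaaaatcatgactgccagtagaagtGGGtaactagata
LVCAT5 (chr7:119794360-119794449, minus strand, intron): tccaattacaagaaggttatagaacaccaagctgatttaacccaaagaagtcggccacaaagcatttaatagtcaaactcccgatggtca
EXOC4 (chr7:133356505-133356573, plus strand, exon): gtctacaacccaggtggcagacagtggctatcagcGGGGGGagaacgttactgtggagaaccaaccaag
LEVER (chr11:5401272-5401361, minus strand, intron): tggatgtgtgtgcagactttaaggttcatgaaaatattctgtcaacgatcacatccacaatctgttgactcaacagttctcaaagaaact
FGF13 (chrX:138933868-138933957, minus strand, intron): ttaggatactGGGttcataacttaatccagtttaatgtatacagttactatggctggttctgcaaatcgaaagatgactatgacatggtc
LINC01203 (chrX:13353830-13353919, plus strand, intron): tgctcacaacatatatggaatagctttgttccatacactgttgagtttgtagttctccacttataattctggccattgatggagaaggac
The run GGG occurred in 50.4% of such stretches over the 704 fragments whose host has a known strand, and in 46.6% on the opposite strand. The share was 49.0% for the 51 fragments lying far above the fitted line described below and 42.9% for the 63 lying far below it. Over whole fragments, nuclear density had a rank correlation of -0.07 with the share of G on the transcribed strand (n = 704) and of -0.11 with the GC content (n = 710). These are descriptions across fragments, many of which share a gene.

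Nuclear density was only loosely related to the expression of the host gene. Over the 710 fragments, Spearman's rank correlation was 0.24 between reads per kb and host FPKM, and Pearson's r was 0.28 after log2(value + 1). The fragments are not independent, since those of 1 gene share its FPKM. With the reads of each host summed, the rank correlation over the 288 hosts was 0.31. A least squares line through the log2 values had a slope of 0.31, which means that a 10-fold higher FPKM went with a 2.02-fold higher density along the line. The line accounted for 7.93% of the variance of log2 density, and the standard deviation around it was 1.53 on the log2 scale, or 2.89-fold. With the 636 fragments of at least 10 nuclear reads, a filter that removes sparse fragments, the slope was 0.14, and the rank correlations were 0.15 over fragments and 0.17 over hosts.

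**Figure D1:**
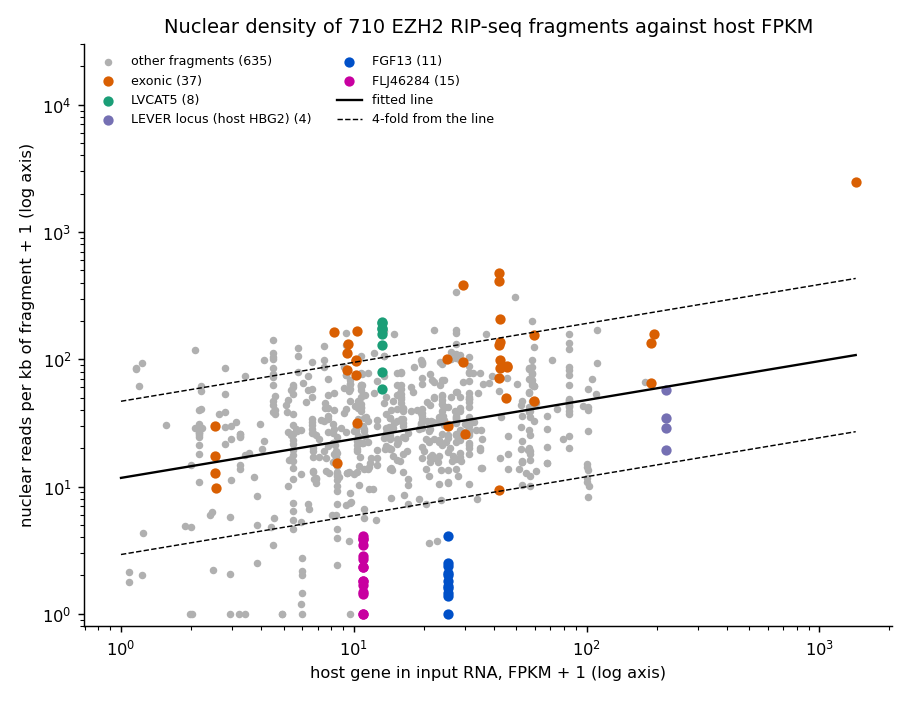
Nuclear reads per kb (y axis, plus 1, log) against host FPKM (x axis, plus 1, log) for the 710 fragments, with the fitted line and dashed lines at 4-fold from it. Exonic fragments lie mostly above the line, the 8 fragments of LVCAT5 lie high, and the 26 fragments of FGF13 and FLJ46284 lie at the bottom.

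The median fragment had 55 nuclear reads and a density of 28.7 reads per kb (quartiles 15.0 and 53.8), while the median host FPKM was 13.7 (quartiles 7.15 and 27.6). Density spanned 0 to 2463 reads per kb and host FPKM 0.0798 to 1433. The median was higher in each successive bin of FPKM, from 3.94 reads per kb below 1 FPKM (n = 13) and 23.4 between 1 and 3 (n = 53) to 24.4 between 3 and 10 (n = 226). It was 30.1 between 10 and 30 (n = 256), 41.3 between 30 and 100 (n = 148) and 64.8 from 100 FPKM upward (n = 14). Of these 14 fragments, 4 come from the LEVER locus and were assigned to HBG2, whose FPKM does not measure LEVER. Fragments with a host FPKM of at least 30 had a median 1.96 times that of fragments with a host FPKM under 3. The quartiles of neighbouring bins overlapped throughout. Between 3 and 10 FPKM the quartiles were 11.2 and 49.7, and between 30 and 100 FPKM they were 19.5 and 69.9. The sparsest fragment had 0 reads in each bin below 30 FPKM, but 7.01 reads per kb between 30 and 100 FPKM.

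**Figure D2:**
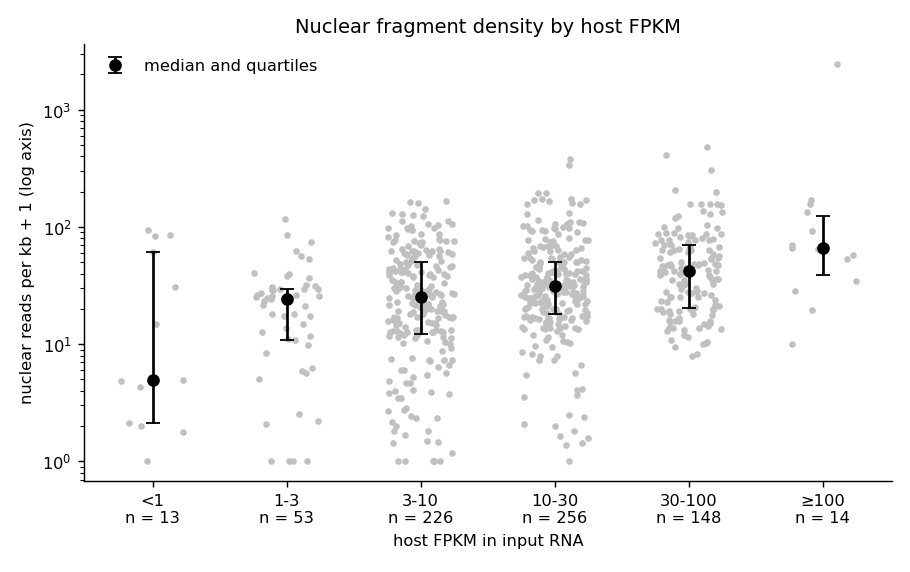
Nuclear reads per kb plus 1 (log axis) in 6 bins of host FPKM, with 1 grey point per fragment and the median with quartiles in black. The medians go from 3.94 to 64.8 reads per kb, with wide overlap between bins.

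The fragments that stood farthest from the line were counted at a distance of at least 4-fold, a threshold with no test, since each library is single. By it, 54 fragments (7.61% of 710) were dense for their host FPKM and 63 (8.87%) were sparse. Either kind was carried by 60 of the 288 hosts. No host carried both kinds, but 170 hosts had only 1 fragment and could not. The other hosts would need fragments very far apart, since all fragments of a host share 1 line value. Of the 89 fragments in several genes, 6 (6.74%) were dense and 13 (14.6%) sparse. Of the 621 in a single gene, 48 (7.73%) were dense and 50 (8.05%) sparse. Taking the gene with the highest FPKM as host can only raise the line value of fragments in several genes. Just inside the threshold were fragments of RASA1 (4.06-fold above) and of RP11-61O11.1 (0.249 times the line), and just outside were fragments of AC004980.7 (3.96-fold above) and of SND1 (0.251 times the line). Of the dense fragments, 30 had a host under 10 FPKM, but sparse fragments were frequent there too. Below 1 FPKM, 4 of 13 fragments were dense and 4 sparse. Between 1 and 3 FPKM these were 4 and 7 of 53, and between 3 and 10 they were 22 and 30 of 226. Between 10 and 30 they were 17 and 17 of 256, and between 30 and 100 they were 6 and 4 of 148. From 100 FPKM upward they were 1 and 1 of 14.

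MALAT1, a nuclear lncRNA of nuclear speckles, was the densest host and also the most expressed. Its fragment on chromosome 11 from 65499308 to 65501247 had 4778 nuclear, 1228 cytoplasmic, 10766 polyA+ and 6584 polyA− reads. The nuclear density was 2463 reads per kb (2394 to 2534) at an FPKM of 1433, 22.8-fold above the line, which passes at 107 reads per kb there. On chromosome X, the fragment from 73821090 to 73827426, which lies wholly in an exon of a lncRNA, had 2401 nuclear and 129 cytoplasmic reads. Its density of 379 reads per kb (364 to 394) was 11.5-fold above the line at an FPKM of 28.5. It lies in 2 genes of the table, so its host is uncertain.

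STXBP5, which encodes the SNARE regulator tomosyn, had 5 fragments and 4 of them were dense. The highest, an intronic fragment of 470 bp on chromosome 6 from 147249544 to 147250013, had 157 nuclear, 9 cytoplasmic, 39 polyA+ and 171 polyA− reads. That is 334 reads per kb (284 to 391) at a host FPKM of 26.4, 10.4-fold above the line. The other fragments of STXBP5 had 169, 159, 130 and 110 reads per kb, so the whole series of 5 lay above the line value of 31.2.

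LVCAT5, a lncRNA gene on chromosome 7, was the densest host with many fragments. Its 8 fragments held 8968 nuclear reads on 56.2 kb, or 160 reads per kb (156 to 163), at an FPKM of only 12.3 (9.97 to 14.6). In order of position from low to high coordinate, they had 173, 157, 171, 194, 57.5, 78.4, 129 and 193 reads per kb. The line passes at 24.8 reads per kb at this FPKM, and 6 of the 8 were dense. Only the pair in the middle, at 57.5 and 78.4, fell under the threshold. The same fragments had 348 cytoplasmic, 1621 polyA+ and 8561 polyA− reads.

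CTD-2060L22.1, another lncRNA gene on chromosome 7, showed the same kind of excess at lower expression. Its 11 fragments had 37.3 to 140 reads per kb at an FPKM of 3.49 (2.91 to 4.07), where the line passes at 17.5, and 6 of them were dense. The highest, from 10736973 to 10737307, had 47 nuclear, 1 cytoplasmic, 2 polyA+ and 48 polyA− reads. All 3 fragments of RASA1, a negative regulator of Ras, were dense as well, at 86.6, 97.6 and 126 reads per kb and an FPKM of 6.44. KCNQ5, a potassium channel gene, had 1 dense fragment of 2, at 116 reads per kb (245 reads) against 28.0. Its FPKM of 1.08 had bounds of 0 and 2.39, so its distance from the line is poorly fixed.

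MBNL1, a regulator of alternative splicing, had 9 fragments and only 1 of them was dense. That intronic fragment of 2970 bp had 591 nuclear, 32 cytoplasmic, 45 polyA+ and 511 polyA− reads, or 199 reads per kb (183 to 216). The other fragments of the gene had 46.2 to 97.6 reads per kb. AC079466.1 on chromosome 19 had 307 reads per kb (289 to 326) in a fragment that lies in 4 genes, so its host is uncertain, and reads of overlapping genes cannot be told apart.

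The dense fragments with the least expressed hosts lay below 1 FPKM. LINC00431, a lncRNA on chromosome 13, had 330 nuclear reads in a fragment of 92.7 reads per kb at 0.227 FPKM (0 to 1.03). GNGT1, which encodes a transducin gamma subunit of photoreceptors, had fragments of 84.0 and 82.3 reads per kb at 0.165 FPKM (0 to 0.617). RP11-94P11.4 had 186 reads and 60.4 reads per kb at 0.195 FPKM. The other 9 fragments with hosts below 1 FPKM had 0 to 29.6 reads per kb, among them the glypican gene GPC6 with 4 and 2 reads.

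The sparse fragments were concentrated in a pair of genes. FGF13 and FLJ46284 together carried 26 of the 63, and every listed fragment of both genes was sparse. FGF13 encodes an intracellular fibroblast growth factor homolog that binds voltage-gated sodium channels. Its FPKM was 24.3 (20.3 to 28.2), above the median host, but its 11 intronic fragments held only 43 nuclear reads on 41.0 kb. By coordinate, the fragments had 1, 8, 3, 13, 1, 0, 1, 9, 2, 3 and 2 nuclear reads. Their densities were 0 to 3.08 reads per kb, and 1.05 (0.758 to 1.41) when summed, where the line passes at 30.4. The fragment with 0 reads, from 138932863 to 138934962, allows up to 1.76 reads per kb. These fragments lay 35.0 to 431 kb from the 5′ end of the gene, which spans 608 kb on the minus strand.

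FLJ46284, a lncRNA gene on chromosome 8, had the same profile. Its 15 fragments held 50 nuclear reads on 41.8 kb, or 1.19 reads per kb (0.887 to 1.58), at an FPKM of 9.91 (7.78 to 12.0). Single fragments had 0 to 12 reads and 0 to 3.08 reads per kb, where the line passes at 23.3. The other libraries were as low: FGF13 had 5 polyA+ and 40 polyA− reads in all, and FLJ46284 had 8 and 37. All 26 fragments had 0 cytoplasmic reads.

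The other 37 sparse fragments were spread over 26 hosts and had a median of 1.43 reads per kb and a median host FPKM of 4.96. All 5 fragments of CTA-481E9.3, a gene on chromosome 16, were sparse, with 8, 3, 2, 0 and 3 nuclear reads. The one with 0 reads lies in 2 genes, so its host is uncertain. LINC01203 on chromosome X had 0 nuclear reads in both of its fragments, which together cover 8.44 kb and so allow up to 0.437 reads per kb. Sparse fragments of more expressed hosts were fewer. ALDH1A2, a retinaldehyde dehydrogenase gene with an FPKM of 99.0, had 4 fragments of 9.76 to 14.0 reads per kb, 2 of them sparse. UBA2, a subunit of the SUMO-activating enzyme, had 12 nuclear reads in its only fragment, 9.03 reads per kb (4.67 to 15.8) at 101 FPKM. PRKCB, which encodes protein kinase C beta, had 1 sparse fragment of 7.21 reads per kb among 6. LINC00534 had 3 sparse fragments of 17, and its summed density was 11.1 reads per kb at an FPKM of 7.46.

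In total, the 63 sparse fragments held 301 nuclear, 13 cytoplasmic, 134 polyA+ and 343 polyA− reads. Of all 710 fragments, 12 had 0 nuclear reads, and 6 of these had 0 reads in each of the other 3 libraries too. A fragment of KCNJ16 with 0 reads in each library lies inside a longer listed fragment of the gene with 814 nuclear reads. They are the only overlapping pair in the list, and how reads in the overlap were counted was not given in the sources used here.

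Fragments were also compared within their genes. Hosts with at least 2 fragments numbered 118, and among their fragments the host accounted for 0.80 of the sum of squares of log2(reads per kb + 1). The number of hosts alone gives 0.22 when values are unrelated, since the 118 hosts hold 540 fragments. Without FGF13 and FLJ46284, the share was 0.73. Still, the densest and the sparsest fragment of a host differed by a median factor of 2.53, and by up to 56.6-fold in EXOC4. These extremes were picked by their values, so their ratio exceeds 1 by construction and grows with the number of fragments. All of these fragments were compared with a single FPKM per host, so this spread within hosts cannot follow the FPKM.

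**Figure D3:**
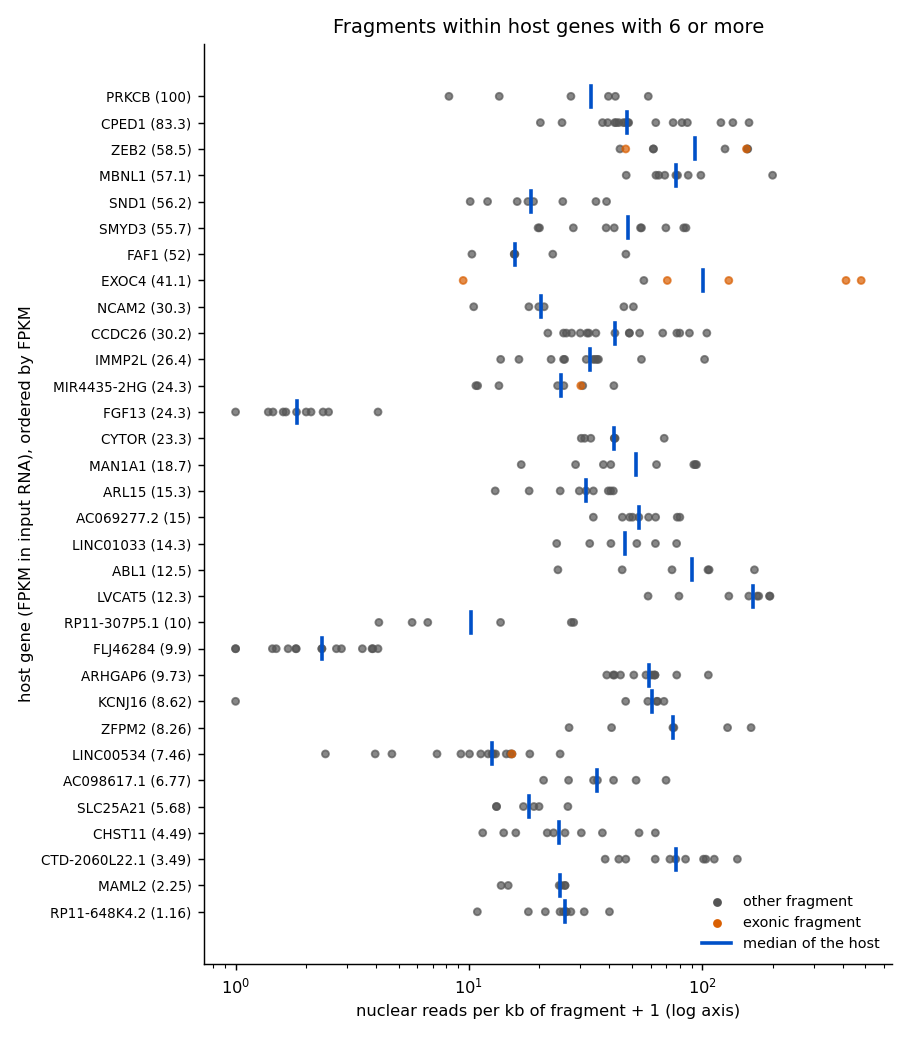
Nuclear reads per kb plus 1 (log axis) of each fragment in the 32 hosts with at least 6 fragments, ordered by FPKM (in brackets), with exonic fragments in orange and the median of each host as a blue bar. FGF13 and FLJ46284 sit far to the left of hosts with like FPKM, and LVCAT5 sits to the right.

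The 32 hosts with at least 6 fragments held 290 of the 710 fragments and covered 1.16 to 99.997 FPKM. Their summed densities ran from 1.05 (FGF13) to 160 reads per kb (LVCAT5), with a rank correlation of 0.15 against FPKM. PRKCB, the most expressed of them, had 37.0 reads per kb, and RP11-648K4.2, the least expressed at 1.16 FPKM, had 24.6. Among hosts of 50 to 60 FPKM, ZEB2, a zinc finger transcription factor, had 119 reads per kb (115 to 123) and MBNL1 had 85.5 (82.3 to 88.9). The histone methyltransferase gene SMYD3 had 47.4 (44.4 to 50.5), FAF1 had 21.4 (19.4 to 23.6), and SND1, a nuclease of the RNA-induced silencing complex, had 18.1 (16.6 to 19.8). These 5 hosts differed in density beyond counting error while their FPKM lay between 52.0 and 58.5, except FAF1 and SND1, whose intervals overlapped.

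Among the 32 hosts, those of about 8 to 15 FPKM spread further, from 1.19 reads per kb in FLJ46284 to 160 in LVCAT5. Without this pair the spread was not clearly wider. KCNJ16 had 59.6 reads per kb, the GATA cofactor gene ZFPM2 had 61.4, and ARHGAP6, a GTPase-activating protein gene, had 60.7. RP11-307P5.1 had 9.59, ARL15 had 29.6, and LINC01033 had 37.9. AC069277.2 is listed as a pair of entries, with 9 fragments at 55.4 reads per kb and 15.0 FPKM, and 5 fragments at 36.9 reads per kb and 9.42 FPKM. Below 7 FPKM, MAML2 had 19.5 reads per kb, SLC25A21 had 16.3, CHST11 had 30.03 and AC098617.1 had 37.1. Between 15 and 31 FPKM, MAN1A1 had 43.6 and NCAM2 had 26.4. CYTOR had 35.4 and MIR4435-2HG had 24.4, at 23.3 and 24.3 FPKM, but these are near-identical copies. Reads that fit both may be lost, since alignments of mapping quality under 20 were removed, so both levels are uncertain.

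CPED1 had the most fragments, 18, and the FPKM of 83.3 (79.0 to 87.7) applied to all of them. The densest had 157 reads per kb and the sparsest 19.2, an 8.19-fold difference. Fragments at 157, 134 and 119 reads per kb stood between neighbours at 41.8, 41.1 and 47.3, so the density did not change smoothly along the gene. In CCDC26, a lncRNA gene of chromosome 8 with 17 fragments and 30.2 FPKM, density did decline along the gene. The fragments 120 to 170 kb from the 5′ end had 47.7 to 104 reads per kb, while those beyond 260 kb had 20.8 to 31.1, and the rank correlation with distance was -0.85 (n = 17). IMMP2L, a mitochondrial inner membrane peptidase gene, went from 101 reads per kb at 326 kb to 12.7 at 746 kb, with a rank correlation of -0.83 (n = 12).

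**Figure D4:**
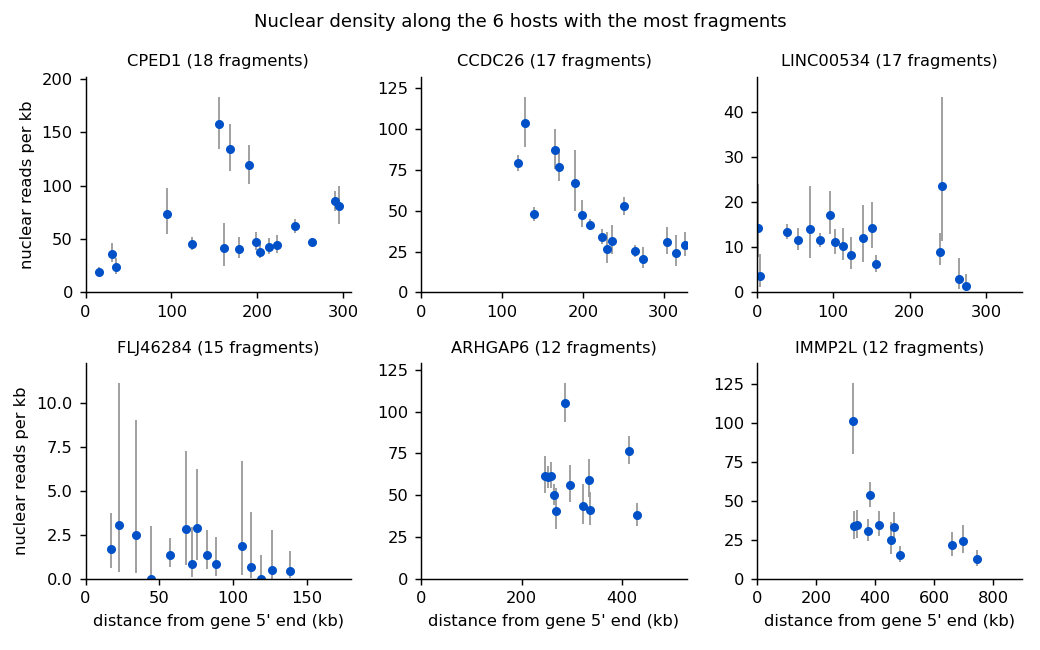
Nuclear reads per kb (y axis) against the distance of the fragment centre from the 5′ end of its host (x axis, kb) in the 6 hosts with the most fragments, with bars for the 95% Poisson interval. CCDC26 and IMMP2L decline with distance, CPED1 has isolated high fragments, and FLJ46284 stays at or under 3.08 reads per kb.

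Over the 32 hosts, the rank correlation between density and distance from the 5′ end was negative in 23 and had a median of -0.25. It was below -0.5 in 10 hosts and above 0.5 in 1, MAN1A1 (0.62, n = 8). Among the 10, FAF1, LINC01033, EXOC4, NCAM2 and RP11-307P5.1 had only 6 fragments each, so their values are poorly fixed. EXOC4 also mixes exonic and intronic fragments. FLJ46284, another of the 10, had only 50 nuclear reads in all. Over all fragments with a matched gene model, the rank correlation was -0.12 (n = 704). The distances run from the 5′ end of the gene span in the FPKM table, with the strand from GENCODE 44. These spans include promoters that K562 may not use.

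Exonic fragments were denser than the rest. Of the 710 fragments, 37 had at least 50% of their length in exons of their host, and they had a median of 93.4 reads per kb (quartiles 46.0 and 136). The other 673 had a median of 27.6 (quartiles 14.6 and 49.9), and the ratio of the medians was 3.38. With any base in an exon counted as exonic, the ratio was 1.99. The median host FPKM was 29.1 for the exonic and 13.4 for the other fragments. Of the exonic fragments, 11 (29.7%) were dense and 0 were sparse, against 43 (6.39%) and 63 (9.36%) of the others. The rank correlation with host FPKM was 0.37 over the 37 exonic fragments and 0.21 over the 673 others.

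All 12 fragments under 300 bp were exonic, 4 of them in EXOC4, 3 in EZH2 and 2 in SCFD2, with a median of 114 reads per kb. The remaining 25 exonic fragments had a median of 85.0, and with fragments of at least 1 kb alone the ratio of exonic to other medians was 3.19. A read that overlaps a short fragment by few bases may have been counted in full. The overlap required was not given in the sources used here, and its part in the densities of the short fragments was not tested.

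EXOC4, a subunit of the exocyst complex of secretion, held the densest of the short fragments. Fragments of 69 and 68 bp, each lying wholly in an exon, had 33 and 28 nuclear reads, which gave 478 reads per kb (329 to 672) and 412 (274 to 595). Exonic fragments of 163 and 129 bp had 129 and 69.8 reads per kb, and the fragment in an intron had 55.2. A fragment of 1421 bp with 63.2% of its bases in exons had only 12 nuclear reads, 8.44 per kb. Similar steps were seen in SCFD2, where the 3 exonic fragments had 97.7, 96.0 and 74.3 reads per kb and the others 28.9 and 26.2. FARS2, the mitochondrial phenylalanyl-tRNA synthetase gene, had 112 and 80.7 in exons and 11.7 in an intron. In all 7 hosts with fragments of both kinds the exonic median was higher, by a median factor of 2.34. Of these hosts, EXOC4, SCFD2, FARS2 and GOLGA1 had exonic fragments under 300 bp, and the others had none. In the others the difference was small, with medians of 99.8 in exons against 92.4 in ZEB2. The medians were 29.1 against 23.0 in MIR4435-2HG and 14.3 against 11.3 in LINC00534.

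EZH2 itself was a host, with 4 fragments that were all exonic and an FPKM of 41.6. They had 17, 21, 13 and 103 nuclear reads, or 207, 136, 98.5 and 85.0 reads per kb, and the first was dense. The cytoplasmic reads were 17, 18, 10 and 204 and the polyA+ reads 38, 36, 18 and 305. Exons did not always go with high density. KCNQ1OT1, the antisense lncRNA of the KCNQ1 locus, is annotated as an exon over all of its 3 fragments. They had 16.2, 11.7 and 28.6 reads per kb at an FPKM of 1.53, close to the line, and lie inside a second gene on the other strand.

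The hosts with the highest FPKM did not share a common density. After MALAT1 came HBG2, RPL27A (195 FPKM, 157 reads per kb), HNRNPU (188 FPKM, 128 reads per kb) and RPS19 (177 FPKM, 65.4 reads per kb). RPL27A and RPS19 encode ribosomal proteins and HNRNPU an RNA-binding protein of the nuclear matrix. The nucleoporin gene NUP214 had 128 reads per kb at 110 FPKM, the histone gene HIST1H2BC had 52.4 at 109, and HNRNPD had 69.0 at 104. UBA2 and PRKCB completed the 10, with 9.03 and 37.0 reads per kb. These densities ran from 9.03 to 2463 reads per kb, with MALAT1 alone at the upper end and RPL27A next at 157. The FPKM ran from 99.997 to 1433. The hosts were picked by FPKM, which limits its range, so the widths of these ranges cannot be compared.

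The LEVER locus lies upstream of the globin genes on chromosome 11, and its 4 fragments fell inside the long annotated span of HBG2. HBG2 had 218 FPKM, and HBE1, another gene over the same fragments, had 132. These FPKM values belong to the globin genes and are not a measure of LEVER itself. In order of coordinate, the fragments had 69, 201, 125 and 126 nuclear reads. The densities were 18.4 (14.3 to 23.3), 33.5 (29.0 to 38.4), 56.8 (47.3 to 67.7) and 27.6 (23.0 to 32.9) reads per kb. All 4 lay below the line value of 59.7 but within 4-fold of it, and 2 of the 4 lay above the median of all fragments, 28.7.

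Lists of genes set with earlier results of these data known were counted as hosts. The 288 hosts are 0.494% of the 58293 entries of the FPKM table. Of 13 nuclear lncRNAs, 6 hosted 41 fragments with a median of 23.6 reads per kb, 1 dense (2.44%, against 7.61% of all 710) and 3 sparse (7.32%, against 8.87%). The list does not hold the gene of the dense chromosome X fragment. FTX, a lncRNA of the X inactivation centre, had 66.8 and 32.4 reads per kb, and PVT1, which lies beside MYC, had 21.5. Of 29 erythroid and globin genes, 3 hosted 6 fragments. Besides HBG2, these were the glycophorin gene GYPC with 12.9 reads per kb at 34.7 FPKM and the erythrocyte ankyrin gene ANK1 with 7.01 at 32.8, the latter sparse.

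K562 carries the BCR-ABL1 fusion, and both partners were hosts. ABL1, a tyrosine kinase gene, had 73.1, 44.3, 106, 166, 105 and 23.1 reads per kb at 12.5 FPKM (11.5 to 13.5), and 3 of the 6 fragments were dense. BCR had 12.8, 24.1 and 16.9 reads per kb at 44.9 FPKM (39.2 to 50.5), all below the line. The BCR fragments were thus less dense than 5 of the 6 of ABL1, although the FPKM of BCR was higher. JAK2 had 7.82 and 6.44 reads per kb at 8.68 FPKM. Of 25 genes of chromatin and PRC2, EZH2 was the only host, and of 85 ribosomal protein genes, RPL27A and RPS19 were.

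Coding and non-coding hosts had close median densities at different FPKM. Fragments far from the line made up a larger share in non-coding hosts, where a few genes held many of them. The 481 fragments in coding hosts had a median of 28.9 reads per kb at a median FPKM of 18.7, and the 223 in non-coding hosts had 28.2 reads per kb at 9.42 FPKM. Of the former 30 were dense (6.24%) and 28 sparse (5.82%). Of the latter 21 were dense (9.42%) and 35 sparse (15.7%). LVCAT5 and CTD-2060L22.1 held 6 of the dense ones each, and FLJ46284 held 15 of the sparse ones. These shares therefore lean on a few genes and do not describe non-coding hosts in general. Over all 710 the shares were 7.61% and 8.87%. The rank correlation with FPKM was 0.25 in coding and 0.22 in non-coding hosts. The remaining 6 fragments lay in hosts with no match in GENCODE 44.

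The same relation was computed with the reads of the other fractions, which share the FPKM values and the fragments. The rank correlation was 0.23 for cytoplasmic, 0.19 for polyA+ and 0.23 for polyA− reads per kb. The median fragment had 1.26 cytoplasmic, 7.53 polyA+ and 29.7 polyA− reads per kb, and 144 of the 710 had 0 cytoplasmic reads. The library totals are not given in the files, so these levels are not comparable between libraries. Within the cytoplasmic library, exonic fragments had a median of 30.2 reads per kb and the others 1.21. In polyA+ RNA the medians were 44.1 and 7.08, and in polyA− RNA they were 67.0 and 28.6.

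**Figure D5:**
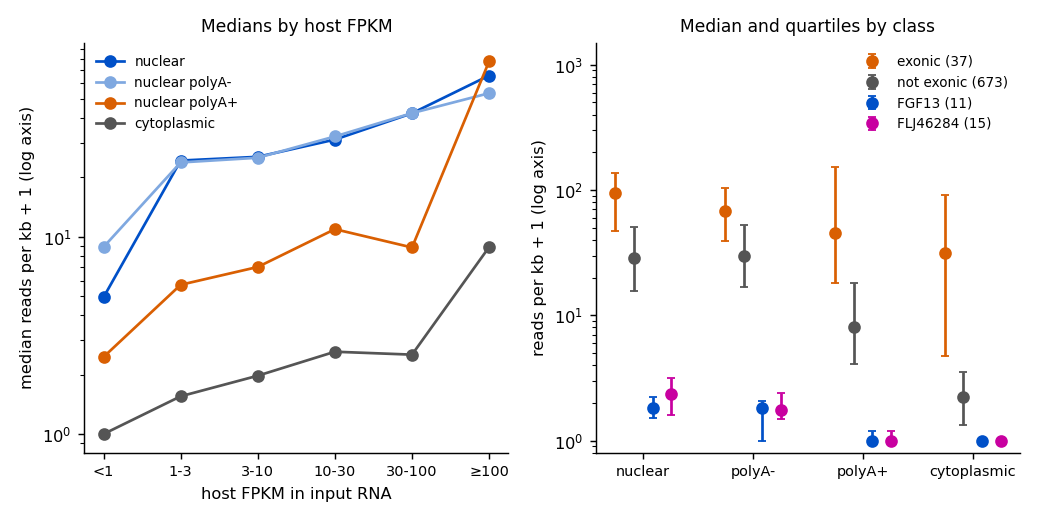
Left, median reads per kb plus 1 (log axis) by bin of host FPKM in the 4 fractions; right, median and quartiles of reads per kb plus 1 for exonic fragments, other fragments, FGF13 and FLJ46284. The medians are higher in the top bin than in the lowest in every fraction, and FGF13 and FLJ46284 are near 0 in all 4.

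The 190 listed fragments that lay in no gene span of the FPKM table had a median nuclear density of 23.5 reads per kb (quartiles 8.73 and 43.5). The median of the 710 fragments in genes was 1.22 times that value, with wide overlap. The 190 reached at most 192 reads per kb. The membership itself was clear-cut, since 708 of the 710 lay wholly inside a host span, the least contained had 63.3% of its length inside, and the highest share among the others was 30.7%.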

How the data were processed

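Nuclear, cytoplasmic, nuclear polyA+ and nuclear polyA− RNA and the RIP-seq input RNA of K562 cells were used, with 1 library each. The authors trimmed the reads, aligned them to GRCh38 by STAR using GENCODE 26, and discarded duplicates and alignments of mapping quality under 20. Removal of duplicates can lower the counts of very dense fragments. They deposited raw read counts per RIP-seq fragment made with featureCounts, and FPKM per gene from Cuffdiff, each with its bounds. The strand and overlap settings of the counting are not given in the sources used here, so genes on opposite strands cannot be told apart. The 4 count tables list 900 fragments and 105661 nuclear reads, 87010 of them (82.3%) on the 710 fragments in genes. Counts were divided by fragment length. Library totals were not used here.

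Fragments were placed on the gene spans of the FPKM table, which also gave the 5′ ends. Exons and strand came from GENCODE 44 by gene identifier, with 284 of 288 hosts matched. Fragments with at least 50% of their length in exons of the host were called exonic. The line was fitted by least squares to log2(value + 1). No test was run and no p-value is given. The members, lists and thresholds were chosen with earlier results of these data known. The text names the 10 densest fragments, the 8 farthest above and the 8 farthest below the line (with at least 10 reads or 1 kb), hosts with at least 6 fragments, the 10 hosts of highest FPKM, the LEVER fragments and the hosts in the lists. Other genes were named after their values were seen. Results that need withheld items are not reported here. The script was tested on simulated data. Alternatives comprised other overlaps, hosts, filters, pseudocounts, folds and reference values. Tables were handled with pandas 2.3.3 and numpy 2.4.6 in Python 3.11.15, intervals were computed with scipy 1.17.1, and plots were drawn with matplotlib 3.10.9.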

Additional observations from a re-analysis of the deposited data

How the results depend on the processing

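Of 114 values recomputed under 14 other settings, 96 stayed within 1.5 times the main count or within the interval of the main value, 18 moved and 0 reversed. These intervals treat fragments as independent. The interval of the share of variance was a binomial one, which does not measure its error. For a ratio of medians, the outer bounds of both medians were combined, which makes the interval wide. The setting with 90% of the fragment inside a gene kept 708 of the 710 fragments, so its values could hardly move. The tally is therefore a loose description. With only fragments of at least 10 nuclear reads (636 fragments), which removes the sparse end by construction, the rank correlation of nuclear density with host FPKM was 0.15, the slope 0.14, the rank correlation over host genes 0.17, and those for polyA+ and polyA− reads 0.11 and 0.15. In the same setting 28 fragments were dense and 25 sparse, the median density was 31.7 reads per kb, and the share of variance between hosts was 0.66. With only fragments free of any exonic base, the rank correlation was 0.16 and the slope 0.21. A fold of 2 gave 176 dense and 142 sparse fragments, and the ratio of density to FPKM against its median gave 106 and 97. The share of variance between hosts was 0.85 with fragments of at least 1 kb, and 0.73 without FGF13 and FLJ46284, a setting chosen after seeing the data. With any base in an exon counted as exonic, the exonic to intronic ratio was 1.99. The ratio between high and low host FPKM was 1.48 to 1.96 over its alternatives. No paired analysis was possible because each library is single. The median relative half-width of the counting interval was 27.2% for a density and 15.7% for a host FPKM by its deposited bounds, and 74 fragments had under 10 nuclear reads.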

Other observations

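The confidence bounds of the host FPKM reached down to 0 for 16 of the 710 fragments. Nuclear density had a rank correlation of 0.96 with polyA− density, 0.62 with polyA+ density and 0.63 with cytoplasmic density over the 710 fragments, which share their lengths. Span of the host and length of the fragment had little relation to nuclear density, with rank correlations of -0.11 and -0.05. The distance from the fitted line had a rank correlation of -0.18 with the distance from the 5′ end of the host (n = 704), while host FPKM had one of 0.16 with that distance.

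Among fragments with hosts under 1 FPKM, a fragment of RP11-499F3.2 had 81 nuclear and 100 polyA− reads at 0.558 FPKM, and fragments of ADGRB3, an adhesion receptor gene, had 19 and 9 nuclear reads at 0.994 FPKM. ACYP2 had 0 reads in all 4 fractions at 0.976 FPKM. The most densely covered exonic fragments after those named in the report were in XRRA1 with 165 reads per kb and in GOLGA1 with 162, the latter a fragment of 99 bp with 16 nuclear and 16 cytoplasmic reads.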
